A study of Mus musculus with 19 samples.

Results

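The genes described here encode proteins of the tight junction, the outermost seal between neighboring epithelial cells. They are the claudins *Cldn1*, *Cldn2*, *Cldn3*, *Cldn4*, *Cldn7*, *Cldn12* and *Cldn18*, occludin (*Ocln*) and the scaffold ZO-1 (*Tjp1*), chosen by symbol. All 9 were found among the 53558 genes listed for each library. Of these, 8 were among the 13986 genes with enough counts to be tested, and *Cldn1* was not. The RNA came from neoplastic cells sorted from lung tumors of mice with a Cre-dependent oncogene and the alleles *R26*LSL-tdTomato and *H11*LSL-Cas9, in which lentiviral Cre given through the trachea switches on the oncogene, the red marker and Cas9 in the same cells. All groups share these alleles, a mixed C57BL/6J:129 background and a tumor growth time of 17 weeks. By design the groups differ in the sgRNAs of the vector, while sex and the series of animal numbers were also spread unevenly over them. Lenti-sgInert/Cre carries 3 control sgRNAs (sgNeo1, sgNT and sgNeo2; 7 libraries), Lenti-sgCebpa/sgCebpb/sgCebpd/Cre targets the C/EBP transcription factor genes (sgCebpa/b/d, 7 libraries), and Lenti-sgLkb1/Cre targets *Stk11*, the gene of the kinase LKB1 (sgLkb1, 5 libraries). Cas9 leaves a mixture of edited alleles in such tumors, and cells that escaped editing are not removed by the sort.

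Claudins are small proteins that cross the membrane and bind their counterparts on the next cell, and the set of claudins a cell makes decides which ions and how much water pass between cells. Some claudins mainly seal the junction, such as *Cldn1*, *Cldn3* and *Cldn18*, while claudin-2 forms a pore for small cations and water. Occludin spans the same membrane without being needed to build the strands, and ZO-1 ties the tails of claudins and occludin to the actin skeleton beneath. In the lung, *Cldn18* is known as the claudin of the alveolar epithelium, where its lung form is made from an upstream start, and *Cldn3*, *Cldn4* and *Cldn7* are made along the alveolar and airway epithelium.

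The libraries held between 2760731 and 9944134 expected counts, with a median of 6028922. *Stk11* was lower in all 5 sgLkb1 libraries (7.55 to 15.25 TPM, abundance per transcript length scaled to a fixed total) than in every sgInert library (17.54 to 27.84 TPM), with a log2 fold change of −1.24 (SE 0.17, adjusted p = 0.0001073). *Cebpa* transcript was higher in sgCebpa/b/d than in sgInert (log2 fold change 0.73, SE 0.14, adjusted p = 0.001475). Small edits need not lower a transcript, so this value does not check that label. The epithelial genes *Sftpc* (20130.77 to 41526.96 TPM), *Epcam*, *Cdh1* and *Nkx2-1* were present in every library, and the marker of blood cells *Ptprc* lay between 0 and 21.63 TPM. Library titles carry an animal number beginning with ZR (4 sgInert libraries), one beginning with MT (3 sgInert, 4 sgCebpa/b/d and 3 sgLkb1 libraries) or none (3 sgCebpa/b/d and 2 sgLkb1 libraries). Of the MT-numbered libraries, 2 in the sgInert group share an animal, as do 3 in the sgCebpa/b/d group and 2 in the sgLkb1 group, so that each group has 2 MT-numbered animals and n counts libraries, not mice. All sgLkb1 libraries, 4 sgCebpa/b/d libraries and 3 sgInert libraries were from females. Where nothing says that libraries came from separate animals, p-values measure only the spread between these libraries.

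In the GRCm38 (mm10) assembly the members lie on 7 chromosomes. *Cldn2* is on the X chromosome (chrX:139800828-139811386, plus strand) and *Cldn18* on chromosome 9 (chr9:99689461-99717267, minus strand). *Cldn3* (chr5:134986214-134987472, plus strand) and *Cldn4* (chr5:134945119-134946934, minus strand) are neighbors on chromosome 5, 39279 bases apart and transcribed away from each other, and *Cldn12* (chr5:5489537-5514958, minus strand) is on the same chromosome. *Cldn1* is at chr16:26356642-26371841 (minus strand), *Cldn7* at chr11:69964779-69967885 (plus strand), *Ocln* at chr13:100496507-100552718 (minus strand) and *Tjp1* at chr7:65296165-65527781 (minus strand). *Cldn18* shares 8869 bases with the antisense gene *Gm16004*, which had 0 counts in 17 of 19 libraries and at most 4, and *Cldn3* shares 40 bases with the antisense gene *Wbscr25*, which had at most 10. Whether the counting used the strand of the reads is not given in the sources used here.

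The sequences just upstream of 4 RefSeq transcription starts are printed because *Cldn2* was the one member that differed between groups, *Cldn18* was the most abundant and has an upstream and a downstream start, and *Cldn4* held the most motif matches. Each run is the 250 bases before the start on the strand of the gene, from the RefSeq table of GRCm38.p6, and capitals mark motif matches.
*Cldn2* (chrX:139800558-139800807, plus strand): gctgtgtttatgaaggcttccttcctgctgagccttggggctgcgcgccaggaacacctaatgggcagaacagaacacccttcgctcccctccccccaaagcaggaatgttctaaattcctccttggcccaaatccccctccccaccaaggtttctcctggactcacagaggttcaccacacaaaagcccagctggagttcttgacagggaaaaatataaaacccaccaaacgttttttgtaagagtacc
*Cldn18*, upstream start (chr9:99717268-99717517, minus strand): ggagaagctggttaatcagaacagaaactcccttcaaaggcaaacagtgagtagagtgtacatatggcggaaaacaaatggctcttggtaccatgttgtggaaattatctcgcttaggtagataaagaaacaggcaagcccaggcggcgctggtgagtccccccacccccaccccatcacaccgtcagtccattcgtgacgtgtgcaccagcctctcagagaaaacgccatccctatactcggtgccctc
*Cldn18*, downstream start (chr9:99710064-99710313, minus strand): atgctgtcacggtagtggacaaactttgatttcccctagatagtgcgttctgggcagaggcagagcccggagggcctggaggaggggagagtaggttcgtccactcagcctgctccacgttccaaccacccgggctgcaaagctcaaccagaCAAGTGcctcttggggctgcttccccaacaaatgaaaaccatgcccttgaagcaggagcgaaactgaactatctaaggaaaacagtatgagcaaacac
*Cldn4* (chr5:134946935-134947184, minus strand): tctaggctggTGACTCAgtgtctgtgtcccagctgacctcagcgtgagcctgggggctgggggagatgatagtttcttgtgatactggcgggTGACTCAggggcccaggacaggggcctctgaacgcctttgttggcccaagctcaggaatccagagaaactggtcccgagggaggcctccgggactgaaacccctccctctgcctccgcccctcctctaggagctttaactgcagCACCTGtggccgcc

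Motifs were searched on both strands in the 14 RefSeq windows of the 9 members, each holding 250 bases before and 50 bases from a start. The AP-1 motif TGANTCA, which 7.81% of all 32851 windows held, was found in *Cldn4* alone, beginning 240 and 158 bases before its start. The NKX2-1 core CAAGTG (13.6% of all windows) was found in 3 of the 14 windows, at 1 start each of *Cldn1*, *Cldn7* and *Cldn18*. The *Cldn18* match lies before the downstream start. The E-box CAGGTG of SNAIL and ZEB factors (20.2% of all windows) was found in 5 of the 14 windows, those of *Cldn3*, *Cldn4*, *Cldn7* and *Ocln*. The C/EBP core TTGCNNAA (10.8% of all windows) and the GRHL motif AACCNGTT (2.09%) were found in 0 of the 14 windows. A match is a run of letters and not a measured binding site, and a missing match says only that these letters are not in these windows.

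Levels between genes were compared in TPM, which corrects for transcript length. *Cldn18* was by far the most abundant member, with a median of 866.4 TPM over the 19 libraries (572.56 to 1226.95), above every other member in every library. *Tjp1* (median 104.3 TPM) and *Cldn3* (92.95 TPM) followed and could not be put in an order, since *Tjp1* was above *Cldn3* in 11 of 19 libraries. *Cldn7* was next (49.55 TPM), below *Cldn3* in all 19 libraries and above *Ocln* (27.24 TPM) in 17. *Ocln* was above *Cldn12* (17.88 TPM) in 17 of 19. *Cldn12* was above *Cldn2* in 15 of 19 libraries. *Cldn2* (8.55 TPM) and *Cldn4* (7.38 TPM) overlapped, with *Cldn2* the higher in 9 of 19. *Cldn1* was lowest in every library (median 0.22 TPM).

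Among the 7 claudin members, *Cldn18* made up 78.74% to 86.15% of the summed TPM in each library. The sum itself lay between 714.3 and 1165 TPM for sgInert, between 818.3 and 1176 TPM for sgCebpa/b/d and between 1055 and 1527 TPM for sgLkb1, so that the groups overlapped. These 7 genes held 97.32% to 99.57% of the TPM of all 26 claudins listed. *Cldn2* contributed a median share of 0.571% for sgInert, against 1.387% for sgCebpa/b/d and 0.2323% for sgLkb1. With *Cldn18* set aside, *Cldn2* was 6.213% to 15.37% of the remaining claudin TPM in the sgCebpa/b/d group but 0.526% to 2.982% in the sgLkb1 group. In RNA from a whole sorted sample, fewer cells that make a gene and less of its RNA per cell cannot be told apart.

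**Figure D1:**
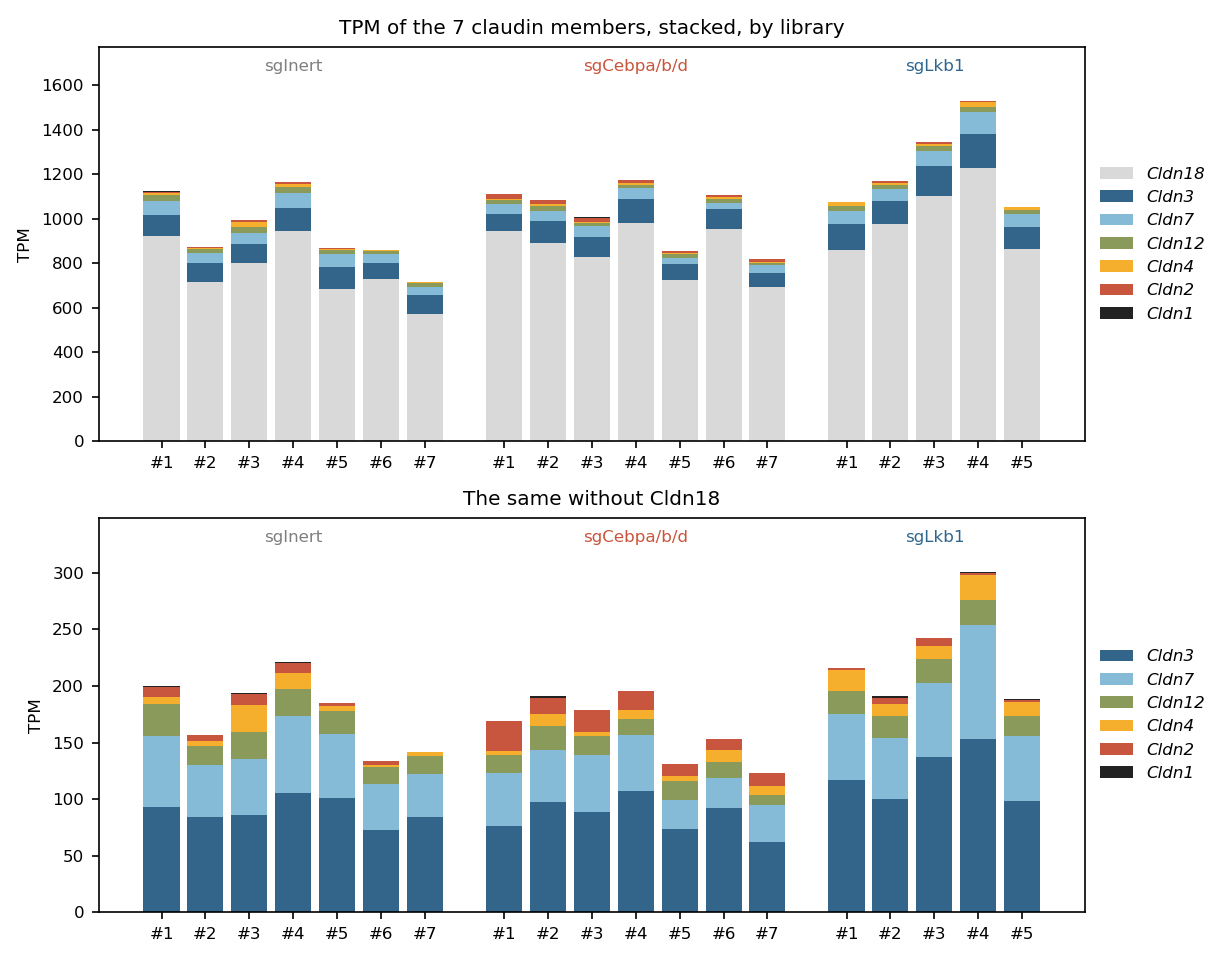
Summed TPM of the 7 claudin members in each of the 19 libraries, stacked by gene, with all 7 genes in the upper panel and *Cldn18* left out in the lower panel. *Cldn18* makes up at least 78.74% of every upper bar, and in the lower panel the *Cldn2* part is 9.53 to 25.95 TPM in sgCebpa/b/d, 0.1 to 10.17 TPM in sgInert and 1.47 to 6.91 TPM in sgLkb1 libraries.

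*Cldn2*, the pore-forming claudin, was the member that differed most between groups. In the 7 sgInert libraries its level was 4.23, 3.58, 4.58, 4.35, 2.24, 2.98 and −0.82 log2 CPM in the order of their numbers (CPM, counts relative to the TMM-adjusted library size), and the last of these came from 1 count. In the 7 sgCebpa/b/d libraries it was 5.77, 4.92, 5.44, 5.09, 4.61, 4.39 and 4.94 log2 CPM, and in the 5 sgLkb1 libraries 1.63, 3.56, 3.80, 1.67 and 2.40 log2 CPM. Every sgCebpa/b/d library therefore lay above every sgLkb1 library, while the sgInert libraries spread over both groups. The counts behind these levels were 122 to 293 for sgCebpa/b/d, 1 to 98 for sgInert and 24 to 90 for sgLkb1.

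*Cldn2* was higher with sgCebpa/b/d than with sgLkb1 by a log2 fold change of 2.25 (SE 0.56, adjusted p = 0.01792), a 4.77-fold difference with a 95% interval of 2.12 to 10.7. It was the only 1 of the 8 tested members called in this comparison, in which 5.96% of all genes tested were called (2.83% higher and 3.12% lower) and 5.08% did not overlap between the groups. Against sgInert, the fitted log2 fold change of *Cldn2* was 1.46 (SE 0.49, adjusted p = 0.05914) in sgCebpa/b/d and −0.79 (SE 0.55, adjusted p = 0.4911) in sgLkb1, and neither passed the threshold of 0.05. The group means of the log2 CPM differ by more than the first of these (5.02 against 3.02), because the sgInert library with 1 count weighs on a mean of logs. The test over all 3 groups gave *Cldn2* an adjusted p of 0.01184, and 13.4% of all genes passed that test. No other member did.

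The difference of *Cldn2* between sgCebpa/b/d and sgLkb1 kept its direction in all 13 other ways of fitting (1.92 to 2.66) and passed the threshold in 11. It was 2.12 (adjusted p = 0.1443) without the 5 libraries that lack an animal number, and 2.33 (adjusted p = 0.278) when the counts of each animal were added up (libraries without a number being added to 1 per virus). The adjusted p was 0.05674 without sgLkb1 #1, 0.05889 without sgLkb1 #4 and 0.05207 without sgLkb1 #5, with log2 fold changes of 2.03, 2.04 and 2.15. Since *Cldn2* is X-linked and the groups differ in sex, it was also fitted in female libraries only (2.51, adjusted p = 0.00298) and with sex as a covariate (2.37, adjusted p = 0.01365). The 4 female sgCebpa/b/d libraries are the MT-numbered ones, of which 3 share an animal, and 2 sgLkb1 libraries also share one. These 2 p-values therefore count libraries, not mice.

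The comparison of *Cldn2* with sgInert depended on which sgInert libraries entered. Its mean was 4.03 log2 CPM in the 4 ZR-numbered and 1.67 in the 3 MT-numbered sgInert libraries. The latter include sgInert #7, the library with 1 count (−0.82 log2 CPM), which lowers their mean. That library is also the only one from a male among the MT-numbered libraries. How far the MT-numbered values below rest on it was not tested. Among MT-numbered libraries, the log2 fold change was 2.83 (adjusted p = 0.01198) for sgCebpa/b/d and 0.70 (adjusted p = 0.627) for sgLkb1 against sgInert. With the title series as a covariate the values were 2.94 (adjusted p = 0.004229) and 0.59 (adjusted p = 0.6924). The ZR series holds sgInert libraries only, so that within it no comparison can be made. No sgInert library lacks an animal number. With the title series in the model, comparisons with sgInert therefore rest on the same 3 sgInert libraries as those among MT-numbered libraries. Leaving out sgInert #3 gave sgCebpa/b/d against sgInert a log2 fold change of 1.70 (adjusted p = 0.03678).

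**Figure D2:**
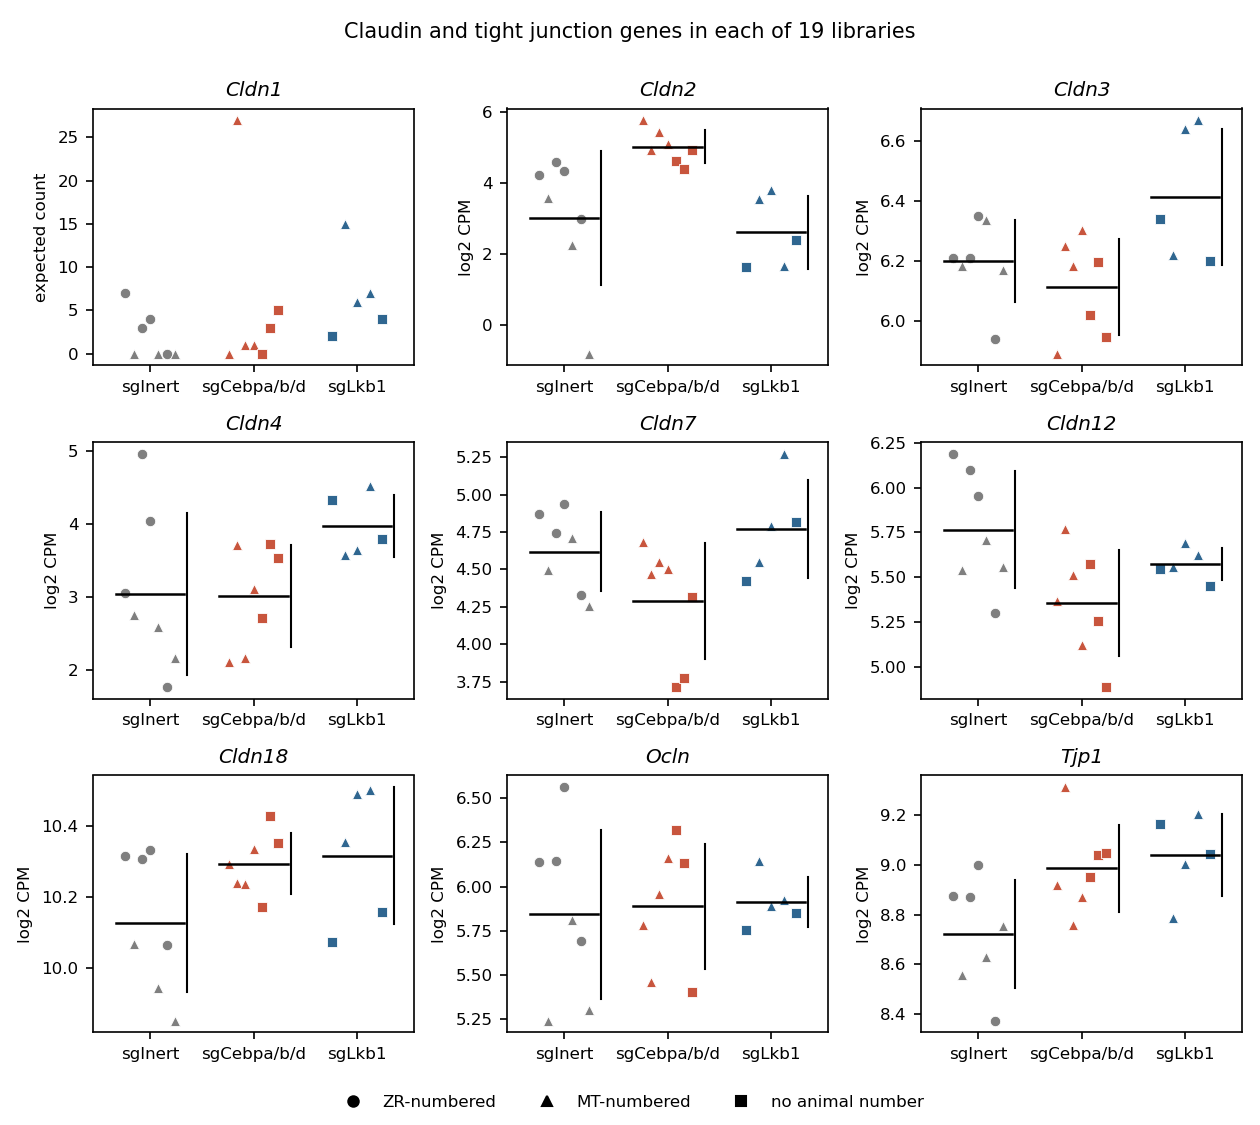
Level of each member in each library (log2 CPM, and expected counts for *Cldn1*) by virus group, with circles for ZR-numbered, triangles for MT-numbered and squares for libraries without an animal number, a bar at the group mean and a line for 1 SD to each side. For *Cldn2* the 7 sgCebpa/b/d libraries lie between 4.39 and 5.77 log2 CPM and the 5 sgLkb1 libraries between 1.63 and 3.80.

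*Cldn18*, the main alveolar claudin, varied little. It ranged from 9.85 to 10.33 log2 CPM in sgInert (median 10.07) and from 10.17 to 10.43 in sgCebpa/b/d libraries (median 10.29), and was 10.07, 10.36, 10.49, 10.50 and 10.16 in the sgLkb1 libraries. All 3 groups overlapped. Against sgInert, the log2 fold change was 0.16 (95% interval −0.03 to 0.35, adjusted p = 0.323) in sgCebpa/b/d and 0.19 (−0.02 to 0.40, adjusted p = 0.3309) in sgLkb1, and between these groups it was −0.03 (−0.24 to 0.18, adjusted p = 0.9134). Among MT-numbered libraries, *Cldn18* was higher than in sgInert in both sgCebpa/b/d (0.31, adjusted p = 0.03583) and sgLkb1 (0.48, adjusted p = 0.004178). With the title series as a covariate these values were 0.39 (adjusted p = 0.03462) and 0.41 (adjusted p = 0.03739). The 2 fits are not separate checks, since in both the comparison rests on the same 3 MT-numbered sgInert libraries, of which 2 share an animal.

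*Cldn3*, a sealing claudin, was 5.94 to 6.35 log2 CPM in sgInert libraries (median 6.21), 5.89 to 6.30 in sgCebpa/b/d libraries (median 6.18) and 6.34, 6.22, 6.64, 6.67 and 6.20 in sgLkb1 libraries. The 2 highest values were both of sgLkb1, but the groups overlapped. Its log2 fold change was −0.31 between sgCebpa/b/d and sgLkb1 (SE 0.11, adjusted p = 0.1121), 0.22 for sgLkb1 against sgInert (SE 0.11, adjusted p = 0.2791) and −0.08 for sgCebpa/b/d against sgInert (SE 0.10, adjusted p = 0.6899).

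*Cldn7*, which is found at the sides of epithelial cells as well as in the junction, was 4.25 to 4.94 log2 CPM in sgInert libraries (median 4.71), 3.71 to 4.68 in sgCebpa/b/d libraries (median 4.47) and 4.42, 4.55, 4.79, 5.27 and 4.81 in sgLkb1 libraries. The 2 lowest values, 3.71 and 3.78, came from sgCebpa/b/d #5 and #6, which have no animal number. The log2 fold change was −0.48 between sgCebpa/b/d and sgLkb1 (SE 0.19, adjusted p = 0.1563), −0.32 for sgCebpa/b/d against sgInert (SE 0.18, adjusted p = 0.2907) and 0.16 for sgLkb1 against sgInert (SE 0.19, adjusted p = 0.7204). Among MT-numbered libraries the last 2 values were 0.035 (adjusted p = 0.9509) and 0.40 (adjusted p = 0.3111).

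*Cldn4*, the neighbor of *Cldn3* whose upstream sequence held the AP-1 matches, spread widely within groups. It was 1.76 to 4.96 log2 CPM in sgInert libraries (median 2.74), 2.11 to 3.72 in sgCebpa/b/d libraries (median 3.11) and 4.33, 3.58, 3.64, 4.52 and 3.79 in sgLkb1 libraries. The highest value of all was that of sgInert #3. The log2 fold change between sgCebpa/b/d and sgLkb1 was −0.89 (95% interval −1.82 to 0.04, adjusted p = 0.3004), that of sgLkb1 against sgInert 0.62 (−0.32 to 1.55, adjusted p = 0.5202) and that of sgCebpa/b/d against sgInert −0.28 (−1.15 to 0.60, adjusted p = 0.759). Without sgInert #3, sgLkb1 against sgInert was 1.15 (adjusted p = 0.08371) and sgCebpa/b/d against sgInert turned to 0.26 (adjusted p = 0.7291). Among MT-numbered libraries these 2 values were 1.502 (adjusted p = 0.05657) and 0.46 (adjusted p = 0.6079), and with the title series as a covariate 1.44 (adjusted p = 0.168) and 0.53 (adjusted p = 0.7052).

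*Cldn12*, a claudin that lacks the tail motif by which others bind ZO-1, was 5.30 to 6.19 log2 CPM in sgInert libraries (median 5.71), 4.89 to 5.77 in sgCebpa/b/d libraries (median 5.37) and 5.55, 5.56, 5.69, 5.63 and 5.45 in sgLkb1 libraries. Its log2 fold change was −0.41 for sgCebpa/b/d against sgInert (SE 0.14, adjusted p = 0.074), −0.22 for sgLkb1 against sgInert (SE 0.16, adjusted p = 0.51) and −0.19 between sgCebpa/b/d and sgLkb1 (SE 0.16, adjusted p = 0.5679). The first passed the threshold without sgInert #6 (−0.48, adjusted p = 0.02873) or without sgCebpa/b/d #2 (−0.49, adjusted p = 0.03169). It was smaller among MT-numbered libraries (−0.15, adjusted p = 0.6622) and with the title series as a covariate (−0.15, adjusted p = 0.7585).

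*Cldn1* was near the limit of what these libraries can show. Its counts were 7, 0, 3, 4, 0, 0 and 0 in the sgInert libraries, 0, 27, 1, 1, 0, 3 and 5 in the sgCebpa/b/d libraries and 2, 15, 6, 7 and 4 in the sgLkb1 libraries. More than 3 counts were found in 2 of 7, 2 of 7 and 4 of 5 libraries. A count of 0 allows up to 3 counts, by counting error alone, so most of these libraries cannot be told apart and no fold change is given.

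*Ocln* was 5.24 to 6.56 log2 CPM in sgInert libraries (median 5.81), 5.40 to 6.32 in sgCebpa/b/d libraries (median 5.96) and 5.76, 6.14, 5.89, 5.92 and 5.85 in sgLkb1 libraries. The groups overlapped throughout. The log2 fold change was 0.02 (95% interval −0.37 to 0.40, adjusted p = 0.9761) for sgCebpa/b/d and 0.01 (−0.41 to 0.43, adjusted p = 0.9875) for sgLkb1 against sgInert, and 0.01 (−0.41 to 0.42, adjusted p = 0.9945) between the edited groups, with a sign that changed with the way of fitting. Among MT-numbered libraries the values against sgInert were 0.37 (adjusted p = 0.2857) and 0.50 (adjusted p = 0.1586).

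*Tjp1* was 8.37 to 9.0 log2 CPM in sgInert libraries (median 8.75), 8.76 to 9.31 in sgCebpa/b/d libraries (median 8.95) and 9.17, 8.78, 9.0, 9.21 and 9.04 in sgLkb1 libraries. Both edited groups overlapped sgInert. The log2 fold change against sgInert was 0.26 (SE 0.10, adjusted p = 0.1152) in sgCebpa/b/d and 0.31 (SE 0.11, adjusted p = 0.1087) in sgLkb1, and it was −0.05 (SE 0.11, adjusted p = 0.8538) between the edited groups. The 2 comparisons with sgInert share its libraries.

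Against sgInert, 0 of the 8 tested members were called by edgeR in either edited group. Of all genes tested, 10.1% were called in sgCebpa/b/d (4.73% higher and 5.36% lower) and 5.78% in sgLkb1 (2.81% higher and 2.97% lower), and 3.37% and 4.15% did not overlap with sgInert. The unadjusted p of edgeR in sgCebpa/b/d was 0.006529 for *Cldn2*, 0.009199 for *Cldn12* and 0.01843 for *Tjp1*. In sgLkb1 it was 0.01027 for *Tjp1*. The share of all genes with such values was not counted, so these values do not set the members apart. DESeq2 also called 0 members in both comparisons, and limma on log2(TPM + 1) called *Cldn2* in the first (1.59, adjusted p = 0.02426) and *Tjp1* in the second (0.54, adjusted p = 0.01929). All genes called in the 2 comparisons were 1877 and 1162 with DESeq2 and 1043 and 931 with limma. On the log2(TPM + 1) scale the median of all genes was itself shifted by 0.181 for sgLkb1 against sgInert and by −0.155 for sgCebpa/b/d against sgLkb1.

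In size, the members were like other genes. The median absolute log2 fold change of the 8 members was 0.268 for sgCebpa/b/d against sgInert, 0.222 for sgLkb1 against sgInert and 0.25 for sgCebpa/b/d against sgLkb1, and over all genes tested it was 0.258, 0.247 and 0.251. The members differed in how much they varied between libraries of 1 group. The SD of log2 CPM within groups was 1.296 for *Cldn2*, larger than in 96% of the genes tested, and 0.83 for *Cldn4*. The *Cldn2* value rests on sgInert #7, the library with 1 count, and was 0.804 without it, larger than in 78.9% of the genes. It was 0.1619 for *Cldn18*, 0.1712 for *Cldn3* and 0.1899 for *Tjp1*, against a median of 0.4272 over all genes.

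**Figure D3:**
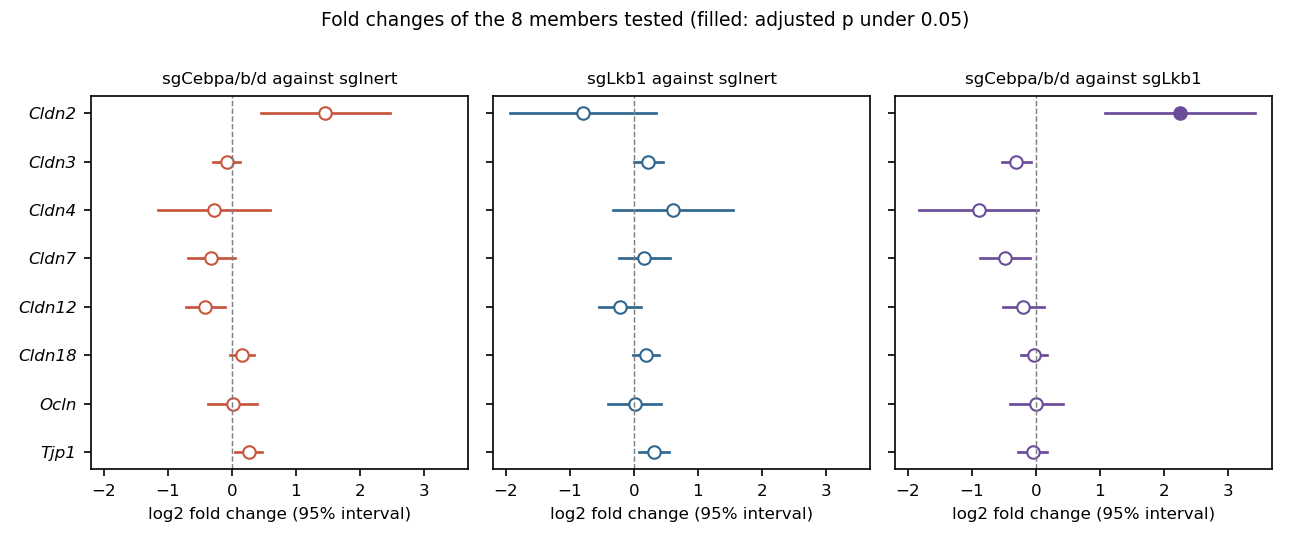
Log2 fold change of the 8 tested members in the 3 comparisons, with 95% intervals and filled points at an adjusted p under 0.05. *Cldn2* in sgCebpa/b/d against sgLkb1 is the one filled point, at 2.25.

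**Figure D4:**
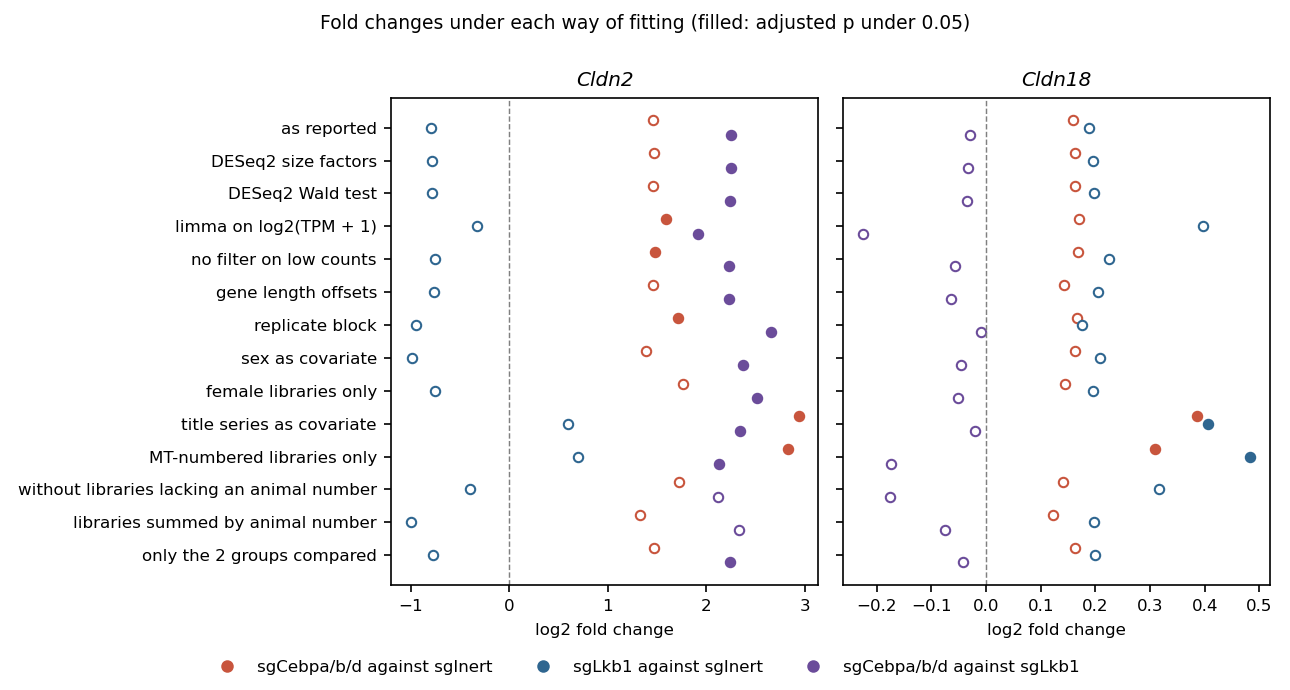
Log2 fold change of *Cldn2* and *Cldn18* in the 3 comparisons under each way of fitting, with filled points at an adjusted p under 0.05. *Cldn2* in sgCebpa/b/d against sgLkb1 stays between 1.92 and 2.66, while *Cldn2* in sgLkb1 against sgInert lies on both sides of 0.

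The genes whose log2 CPM followed a member most closely over the 19 libraries were found for *Cldn2*, *Tjp1* and *Cldn3*, which had the smallest p in the test over 3 groups. For *Cldn2* they were *Rnf128*, a ubiquitin ligase (Pearson r = 0.922), *Apmap* (0.899) and *Igf1r*, a growth factor receptor (0.867), with r of 0.868, 0.851 and 0.805 after the group means were subtracted. For *Tjp1* they were *Icam1*, an adhesion molecule (0.844), *Sik1*, a kinase of the family that LKB1 activates (0.832), and *Ctnnd1*, the p120 catenin (0.828). For *Cldn3* they included *Anapc15* (0.775) and *Gzme* (0.765). These were picked as the highest over all genes tested and are given as descriptions, since the libraries also share depth, title series and animals. Among the 28 pairs of tested members, the median r within groups was 0.386. It was over 0.5 in 5 pairs, the highest being *Cldn4* with *Tjp1* (0.743) and *Cldn2* with *Cldn18* (0.665), and under −0.5 in 0 pairs. The library sgInert #7, with 1 count of *Cldn2*, was the lowest of its group for both *Cldn2* and *Cldn18*. By ranks over the 19 libraries, *Cldn2* correlated at 0.928 with *Rnf128*, 0.882 with *Apmap* and 0.895 with *Igf1r*. How far the correlations of *Cldn2* rest on sgInert #7 was not tested by leaving it out.

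Of 19 other claudin genes in the files, 4 had enough counts to be tested (*Cldn5*, *Cldn8*, *Cldn23* and *Cldn34c1*), and 0 were called by edgeR in any of the 3 comparisons. The unadjusted p of edgeR for *Cldn8* was 0.01273 in sgLkb1 against sgInert and 0.02464 between the edited groups. For *Cldn23* these values were 0.02087 and 0.03372. For *Cldn34c1* it was 0.0218 in sgCebpa/b/d and 0.03546 in sgLkb1 against sgInert. The share of all genes with such values was not counted. Counts in sgInert libraries were only 0 to 7 for *Cldn23* and 2 to 18 for *Cldn34c1*. Among MT-numbered libraries, where 3 of these were tested, *Cldn8* was called lower in sgLkb1 than in sgInert (−1.77, adjusted p = 0.01316) and higher in sgCebpa/b/d than in sgLkb1 (1.59, adjusted p = 0.0204). Among 11 other membrane proteins of the tight junction, 2 were called higher and 1 lower in sgCebpa/b/d against sgInert, 2 higher and 0 lower in sgLkb1 against sgInert, and 0 between the edited groups. Of all genes tested, 10.1%, 5.78% and 5.96% were called in these comparisons. *Cxadr*, the coxsackievirus and adenovirus receptor, was 7.60 to 7.83 log2 CPM in sgCebpa/b/d and 7.76 to 9.04 in sgInert libraries (log2 fold change −0.54, adjusted p = 0.01372), but −0.16 (adjusted p = 0.3729) among MT-numbered libraries. *Jam2*, a junctional adhesion molecule, was 4.93 to 6.70 log2 CPM in sgLkb1 and 2.89 to 4.58 in sgInert libraries (2.06, adjusted p = 0.01905) and 1.98 (adjusted p = 0.0009607) among MT-numbered libraries. *Ildr2*, a protein of junctions where 3 cells meet, was called in sgCebpa/b/d (2.05, adjusted p = 0.02955) and sgLkb1 (2.11, adjusted p = 0.04919), but at 0.31 (adjusted p = 0.805) and 1.12 (adjusted p = 0.252) was not called among MT-numbered libraries. *Jam3* was called in sgCebpa/b/d (adjusted p = 0.04997) from 0 to 3 counts in the sgInert and 2 to 21.31 in the sgCebpa/b/d libraries.

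*Jam2* and *Jam3* are also made by endothelial cells and fibroblasts, whose markers moved with the groups, although the sort removed cells stained for the endothelial protein CD31. The summed TPM of 7 endothelial markers was 7.6 to 17.85 for sgInert, 12.13 to 109.9 for sgCebpa/b/d and 29.58 to 96.32 for sgLkb1, and that of 7 fibroblast markers was 4.04 to 51.67, 29.95 to 138.1 and 45.96 to 136.8. Every listed marker of both types had counts in each group. In all 19 libraries, 5 of 7 endothelial markers were called higher in sgCebpa/b/d and 1 in sgLkb1 than in sgInert. Their median log2 fold changes were 2.206 and 1.966. For fibroblast markers it was 2 of 7 in each (medians 1.47 and 1.703). Of all genes, 4.73% and 2.81% were called higher. Among MT-numbered libraries, 0 of 6 tested endothelial markers were called in sgCebpa/b/d against sgInert (median log2 fold change −0.07) and 1 in sgLkb1 against sgInert (0.94). In the same libraries 6 and 5 of 7 fibroblast markers were called higher, with medians of 4.207 and 4.296. Of all genes, 4.3% and 3.61% were called higher there. The 3 MT-numbered sgInert libraries had fibroblast sums of 5.14, 6.48 and 4.04 TPM, and the 4 ZR-numbered ones 18.03 to 51.67 TPM. The summed TPM of 10 immune markers was 6.39 to 37.44, 5.44 to 85.62 and 9.24 to 76.32, and it was highest in the libraries without an animal number. The part of these cells in the results for *Jam2*, *Jam3*, *Ildr2* and *Zeb2* was not tested.

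Among 23 plaque and polarity genes, which encode the proteins beneath the strands, 0 were called higher and 2 lower in sgCebpa/b/d against sgInert, 1 higher and 1 lower in sgLkb1 against sgInert, and 1 higher and 2 lower in sgCebpa/b/d against sgLkb1. The shares of all genes called were 10.1%, 5.78% and 5.96%, in the same order. *Pard3*, the polarity scaffold that helps place tight junctions, was 5.68 to 6.13 log2 CPM in sgCebpa/b/d libraries, 6.21 to 6.82 in sgInert libraries and 6.33 to 6.68 in sgLkb1 libraries. It fell in sgCebpa/b/d by a log2 fold change of −0.63 (SE 0.10, adjusted p = 0.0002413) against sgInert and −0.63 (SE 0.11, adjusted p = 0.000771) against sgLkb1, with no overlap in either. *Arhgap17*, a GTPase-activating protein of the junction also known as Rich1, fell in both sgCebpa/b/d (−0.54, SE 0.09, adjusted p = 0.0005053) and sgLkb1 (−0.69, SE 0.10, adjusted p = 0.0002779). Both genes were also called among MT-numbered libraries. *Amotl1* (0.36, adjusted p = 0.02582) and *Pard6g* (−1.11, adjusted p = 0.03955) were called between the edited groups, in 5 and 7 of 13 other ways of fitting.

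Among 11 genes of the adherens junction and of claudin partners, 2 were called higher and 2 lower in sgCebpa/b/d against sgInert, 0 and 1 in sgLkb1 against sgInert, and 0 and 1 in sgCebpa/b/d against sgLkb1. Over all genes tested, 10.1%, 5.78% and 5.96% were called. *Nectin1*, an adhesion molecule, fell in sgCebpa/b/d (−0.99, adjusted p = 0.001281) and in sgLkb1 (−0.71, adjusted p = 0.0456), the latter in 3 of 13 other ways of fitting. Among MT-numbered libraries it was called in neither (−0.79, adjusted p = 0.08226, and −0.39, adjusted p = 0.4739). *Ctnna1*, alpha-catenin, rose in sgCebpa/b/d (0.40, adjusted p = 0.003617). *Jup*, plakoglobin, also rose there (0.37, adjusted p = 0.0248) and is named after its values were seen. Of 10 tested transcription factors known to act on junction genes, *Zeb2*, a repressor of epithelial genes, was called higher in sgCebpa/b/d (1.56, adjusted p = 0.03949) and in sgLkb1 (1.77, adjusted p = 0.04066), but not among MT-numbered libraries (0.87, adjusted p = 0.2511, and 1.35, adjusted p = 0.07954).

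**Figure D5:**
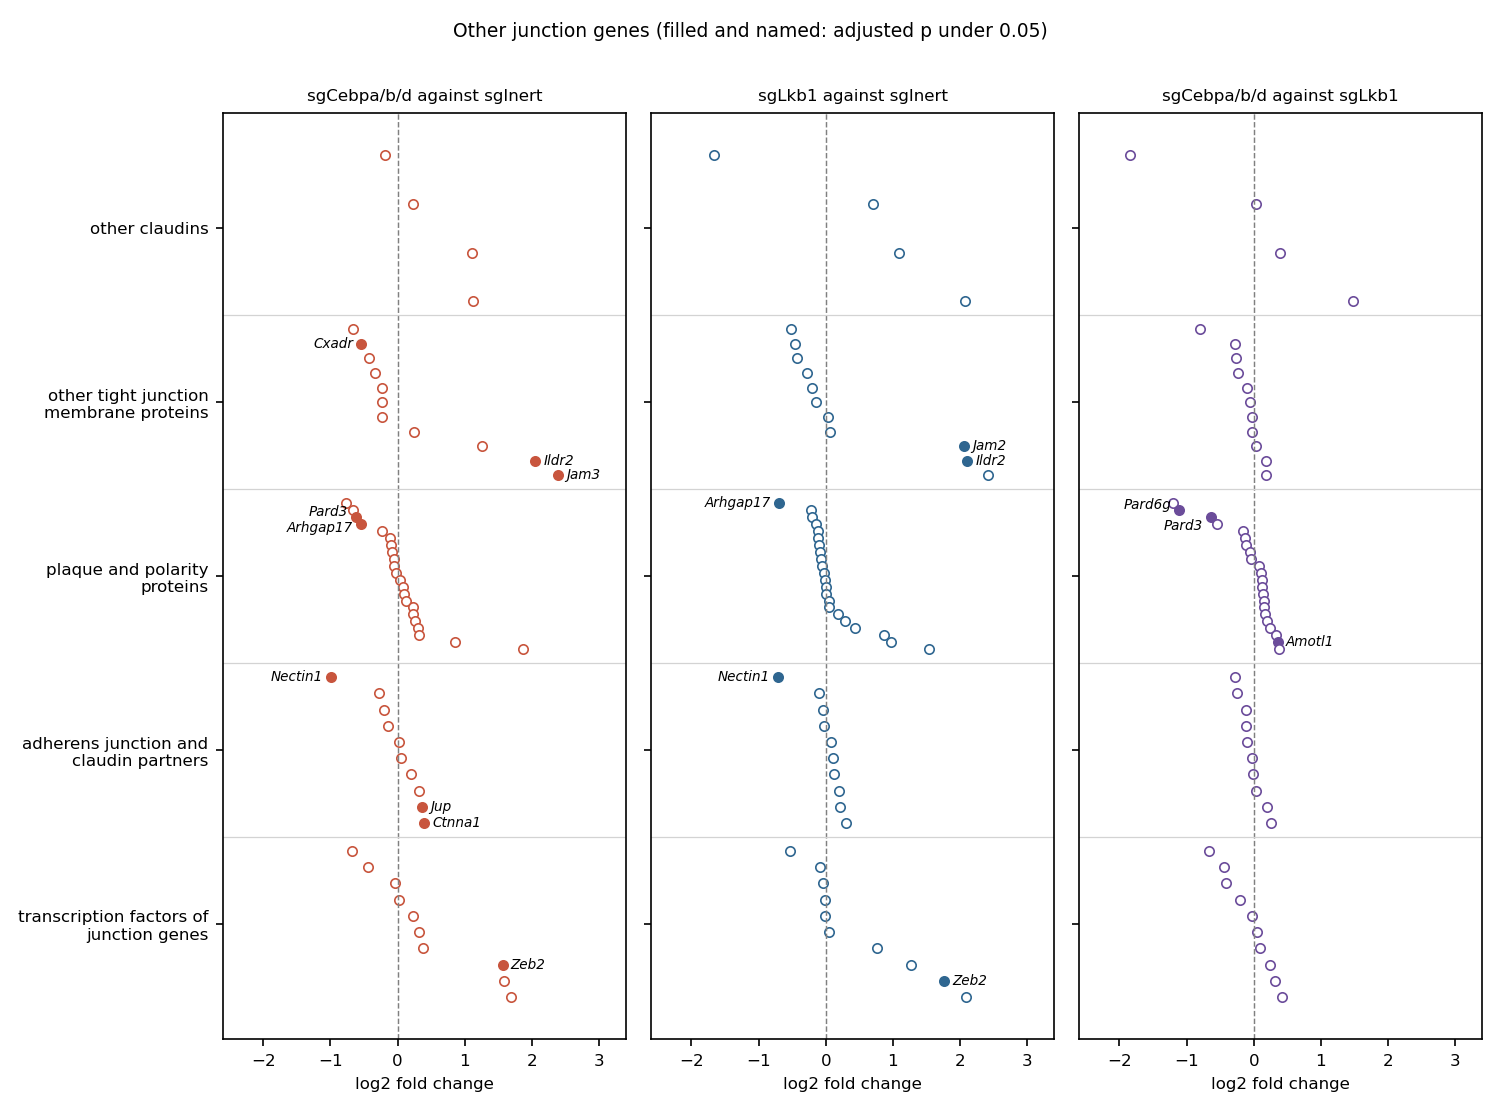
Log2 fold changes of the other junction genes and their transcription factors in the 3 comparisons, 1 point for each gene shown (some genes of the lists are not drawn), with filled and named points at an adjusted p under 0.05. *Pard3* is lower in sgCebpa/b/d against both other groups, and 0 of the other claudins are filled.

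The claudins sit beside wider changes of the alveolar cell markers. Of 8 alveolar type I markers, 6 were higher in sgCebpa/b/d and 2 in sgLkb1 than in sgInert, among them *Pdpn* (2.52, adjusted p = 0.000147) and *Hopx* (1.86, adjusted p = 0.0001216) in sgCebpa/b/d. Of 8 alveolar type II markers, 5 were lower in each edited group, such as *Abca3*, a lipid transporter (−1.33, adjusted p = 7.589e-07, in sgCebpa/b/d). Of 8 markers of the transitional alveolar state, 3 were higher in sgCebpa/b/d and 2 in sgLkb1, *Krt7* and *Krt18* in both. Of all genes tested, 4.73% and 2.81% were called higher in these comparisons and 5.36% and 2.97% lower. Among MT-numbered libraries, where 4.3% and 3.61% of all genes were called higher, the transitional markers called higher were 5 in each edited group and the type I markers 7 and 4. The type II markers called lower there were 4 and 5, where 4.25% and 3.36% of all genes were called lower. Their median log2 fold changes were −0.424 and −0.598, against −0.689 and −0.572 in all libraries. *Cldn4*, which is also used as a marker of the transitional state, was not called in any comparison. *Cldn18*, which both alveolar cell types make, was called only with the title series taken into account or among MT-numbered libraries. Both of these fits rest on the same 3 MT-numbered sgInert libraries. Of 5 tested airway markers, *Cyp2f2* was lower in sgLkb1 than in sgInert (−0.79, adjusted p = 0.03907). The one tested mesothelial marker, *Msln*, was higher in sgLkb1 than in sgInert (3.17, adjusted p = 0.00493). Of 6 tested immune markers 0 were called in any comparison, and none of 5 erythroid markers had enough counts to be tested.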

How the data were processed

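Tumor cells were sorted as DAPI-negative and negative for CD45, CD31, F4/80 and Ter119, and libraries were made with the Trio RNA-Seq kit. The authors aligned reads with STAR (v2.6.1d) to mm10 and estimated abundance with RSEM (v1.2.30). The expected counts deposited by the authors are estimated by RSEM for each gene and are not normalized. The authors' TPM values divide these by transcript length and scale each library to 1 total. RSEM divides reads shared by several genes by a model. All 171 member counts were whole numbers. The authors' tables of DESeq2 (v1.26.0) fold changes, standard errors, p-values and normalized counts were not used.

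Expected counts were rounded and filtered with filterByExpr (minimum count 10, total 15), which kept 13986 genes. TMM scaling and edgeR's quasi-likelihood test (edgeR 4.0.16, R 4.3.3) were run in 1 model of all 19 libraries without a covariate, with two-sided p-values adjusted by Benjamini-Hochberg over all genes tested and a gene called at an adjusted p under 0.05. Log2 CPM used a prior count of 2. Groups, replicate numbers and sexes came from the labels, and the title series from the titles. The 52 pairs of libraries within groups all differed by more than sampling noise (chi-square per gene 6.67 to 73.7). Depth was 2760731 to 9944134 counts, which limits low genes such as *Cldn1*, and counting limits cover counting error only. Alternatives changed the scaling, test (DESeq2 1.42.0, limma 3.58.1 with a pseudocount of 1), filter, gene length, replicate block, sex, title series, animals and libraries.

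The members and lists were chosen with earlier results of these data known. Named genes are the members, up to 3 called genes with the smallest p of each list and comparison, the 3 genes most correlated with each of 3 members, and checks of target and sort. On simulated counts for sgCebpa/b/d against sgInert, 74.9% of 191 genes with a known change and 10 of 13466 without one were called. The known absolute log2 changes were 1 to 3, with 50% called at 1 and 93.9% at 3. Smaller changes were not simulated, and 7 of the 8 tested members lay under 0.5 in this comparison. The simulated libraries were independent, whereas some real ones share an animal. Positions are from GENCODE vM21 (GRCm38), and promoter windows were found for all 9 members. Protein sequences were not used here, and some genes and alleles counted in these groups are not reported here. Figures were drawn with matplotlib 3.10.9 in Python 3.11.15.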

Additional observations from a re-analysis of the deposited data

Results flagged for a closer look

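The effects of the 2 edited groups on *Cldn2* differed by a log2 fold change of 2.25 (SE 0.56, edgeR adjusted p = 0.01792), which is the direct comparison of sgCebpa/b/d with sgLkb1 in the model that also holds sgInert. Against sgInert the fitted values were 1.46 and −0.79. All 7 sgCebpa/b/d libraries were above all 5 sgLkb1 libraries. In the 24 groups of libraries examined for a single value far from the others, 0 passed the limit. The nearest was *Cldn2* in sgInert #7, at −0.82 log2 CPM, whose gap to the next value was 0.5658 of the range of the group, just under the limit for 7 libraries. *Cldn3* in sgInert #6 followed at 0.5582.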

How the results depend on the processing

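The number of members called in sgCebpa/b/d against sgInert, 0 as reported, became 1 with limma on log2(TPM + 1) and with no filter on low counts. It became 2 with the title series as a covariate or in MT-numbered libraries only. All genes called in these 4 settings were 1043, 1322, 926 and 1169, against 1412 as reported. For sgLkb1 against sgInert, 0 became 1 with limma, with the title series and in MT-numbered libraries. All genes called were 931, 657 and 953 in these settings, against 809 as reported. In comparisons with sgInert the title series and MT-numbered settings rest on the same 3 MT-numbered sgInert libraries. For sgCebpa/b/d against sgLkb1, 1 became 3 with limma (*Cldn2*, *Cldn3* at −0.50 and *Cldn7* at −0.75). It became 0 without the libraries lacking an animal number or with libraries summed by animal. All genes called were 967, 455 and 155 in these settings, against 833 as reported. Leaving out 1 library gave 0 to 1 in both comparisons of sgCebpa/b/d. The test over 3 groups called 1 member in each of its 4 alternatives. The causes were not tested.

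Replicate numbers did not pair the libraries: deviations of same-numbered libraries correlated at −0.147 to 0.232, over 0.1 in 2 of 17 pairs. With the replicate number as a block, 1 member was called in sgCebpa/b/d against sgInert (*Cldn2*, 1.71, adjusted p = 0.02898), *Cldn2* differed by 2.66 between the edited groups, and *Ocln* in sgLkb1 against sgInert turned to −0.023. The block changed the counts of all genes called to 1293, 873 and 661.

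Signs turned for differences that did not pass the threshold. Against sgInert in sgCebpa/b/d, *Ocln* was −0.11 in female libraries, −0.045 without libraries lacking an animal number and −0.12 summed by animal, *Cldn4* was 0.53 with the title series and 0.46 in MT-numbered libraries, and *Cldn7* was 0.035 in the latter. In sgLkb1 against sgInert, *Cldn2* was 0.59 with the title series and 0.70 in MT-numbered libraries, *Cldn12* was 0.035 with limma, 0.036 with the title series and 0.0091 in MT-numbered libraries, *Cldn7* was −0.048 with sex as a covariate, and *Ocln* was −0.055 in female libraries and −0.051 summed by animal. Between the edited groups *Ocln* was −0.25 with limma, −0.021 with no filter, −0.065 with gene length offsets, −0.0026 with sex, −0.058 in female and −0.13 in MT-numbered libraries, −0.13 without libraries lacking an animal number, −0.069 summed by animal and −0.0074 with only the 2 groups. Leaving out 1 library gave −0.44 to 0.26 for *Cldn4* and −0.072 to 0.16 for *Ocln* in sgCebpa/b/d against sgInert, −0.078 to 0.15 for *Ocln* in sgLkb1 against sgInert, and −0.0997 to 0.016 for *Cldn18* and −0.084 to 0.066 for *Ocln* between the edited groups.

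All genes called moved from 1412 to 703 in female libraries, 926 with the title series, 881 without libraries lacking an animal number and 480 summed by animal, from 809 to 1258 with sex, 525 and 300, and from 833 to 455 and 155 in the last 2 settings. Chosen after seeing the data, leaving out 1 library gave the SD of *Cldn2* within groups as 0.804 to 1.339, against 1.296.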
